A study of Mus musculus with 10 samples.

Results

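The 9 chemokine genes Ccl2, Ccl3, Ccl4, Ccl5, Ccl6, Ccl9, Cxcl2, Cxcl10 and Cxcl16 were described in RNA-seq libraries of cells sorted from the mouse aorta. They were found by symbol among the 48526 genes of the count table, and all 9 passed the filter on low counts. Of the libraries, 5 came from mice under acute mental stress, for 3 h on each of 3 days, and 5 from non-stressed mice. All 10 carry the strain label ApoE, with no further genotype, age or sex, and the cell type label aortic endothelial cells. Neither the sort markers nor the number of animals behind a library is stated, so a p-value here covers only the spread from library to library, which may be technical. Total counts averaged 23721725 ± 4636084 in stressed and 30415732 ± 6097379 in non-stressed libraries (SD, n = 5 each).

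Chemokines are small secreted proteins that direct leukocyte migration through G protein-coupled receptors. C-C chemokines have adjacent cysteines near the N terminus, and C-X-C chemokines have a residue between them. In atherosclerosis they are known for recruiting monocytes, neutrophils and T cells to the arterial wall, and both endothelial cells and leukocytes make them.

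The libraries held few reads of the endothelial markers of their label. Tek, Emcn and Cldn5, of the 14 endothelial markers, had no read in any library, and Cdh5 stood at 0 to 0.994 CPM (counts per 1000000 counts). The whole list summed to 34.5 to 85.1 CPM in stressed and 39.6 to 91.4 CPM in non-stressed libraries, mostly from Pecam1 and Vwf, which platelets also carry. The 12 monocyte and macrophage markers summed to 30459 to 37623 CPM in stressed and 25846 to 37867 CPM in non-stressed libraries. No pair of libraries in a group was a duplicate, since their counts differed by a chi-square of at least 22.3 per degree of freedom. A count of 0 allows up to 0.0785 to 0.166 CPM, taken as 3 reads, for counting error only. The libraries also fell apart in a way the groups do not give. The 12 T and NK cell markers summed to 71.8 to 129 CPM in 5 libraries (stressed replicates 1 and 2, non-stressed replicates 1, 2 and 3) and to 14.0 to 21.1 CPM in the other 5. In both groups this followed the replicate number, with 1 and 2 high and 4 and 5 low, and only replicate 3 differed. Endothelial markers divided the same libraries, at 80.2 to 91.4 CPM in the first 5 and 34.5 to 60.2 CPM in the others. Neutrophil markers were also higher in the first 5 (1147 to 2178 CPM against 776 to 1039 CPM), and monocyte and macrophage markers lower (25846 to 31195 CPM against 33785 to 37867 CPM). As means of log2(CPM + 1) over a list, T and NK markers still divided the sets (2.62 to 3.40 against 1.02 to 1.29). The other lists overlapped. Neutrophil markers had 3.36 in non-stressed replicate 3 and 3.94 in stressed replicate 4. Monocyte and macrophage markers had 9.75 in non-stressed replicate 2 and 9.72 in non-stressed replicate 5. Endothelial markers had 0.941 in stressed replicate 1 and 0.942 in non-stressed replicate 5. Xist was counted in 2 libraries of each group (replicates 1 and 5), and Y-linked Ddx3y at over 100 reads in the other 3 of each.

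Ccl6 and Ccl9 held most of the chemokine reads. Of the reads of 38 chemokine ligand genes, these held 91.7 ± 1.15% in stressed and 92.4 ± 2.26% in non-stressed libraries (SD, n = 5 each). The other 7 genes together held 3.24 ± 0.560% and 3.14 ± 0.730% (stressed and non-stressed, SD, n = 5 each). The order of levels was read per kilobase of transcript over all 10 libraries. Ccl6 was first with a mean of 617 CPM per kilobase (range 531 to 672), which placed it above 99.7% of the 23157 genes with a read, and Ccl9 was second with 222 (169 to 257). Ccl5 followed at 19.96 CPM per kilobase, Ccl3 at 14.0, Ccl2 at 10.5, Cxcl10 at 9.43, Ccl4 at 4.33, Cxcl16 at 2.09 and Cxcl2 at 1.64. The ranges of Ccl6 and Ccl9 overlapped neither each other nor any other member, while from Ccl5 down each gene's range overlapped that of the next.

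**Figure D1:**
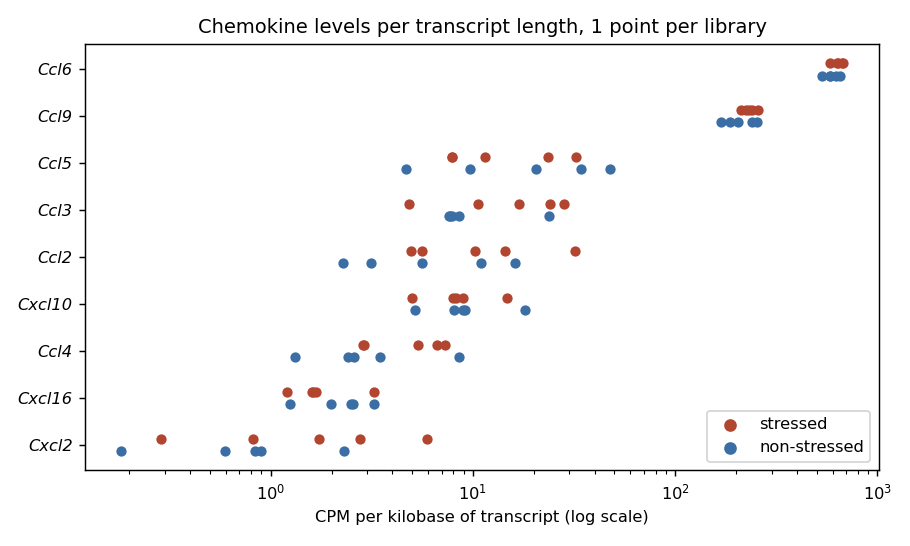
Level of each chemokine gene in CPM per kilobase of transcript (log axis), with 1 point per library and stressed libraries drawn above non-stressed ones. Ccl6 and Ccl9 stand apart at means of 617 and 222, and the other 7 genes have means between 1.64 and 19.96.

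In the genome, Ccl5 (chr11:83525778-83530518), Ccl9 (chr11:83572919-83578636), Ccl6 (chr11:83587882-83593087), Ccl3 (chr11:83647844-83649355) and Ccl4 (chr11:83662584-83664683) lie together in mm10, with Ccl4 on the plus strand and the others on the minus strand. Ccl2 (chr11:82035571-82037453, plus) and Cxcl16 (chr11:70453983-70459984, minus) lie elsewhere on chromosome 11. Cxcl2 (chr5:90903871-90905938, plus) and Cxcl10 (chr5:92346638-92348889, minus) are on chromosome 5. The library kit keeps strand but the strand setting of the counting is not given, so genes with a partner on the other strand are uncertain. Cxcl16 shares 552 exonic bases with Zmynd15 (244 reads over all libraries) and Cxcl10 shares 133 with Art3 (56 reads). Ccl2 lies within Gm17268 (0 reads) and Ccl6 within E230016K23Rik (4937 reads), neither sharing an exon. RefSeq starts Ccl4 at 83648624, inside Ccl3, so reads there depend on the annotation used.

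Promoter windows of 300 bases from RefSeq (GRCm38.p6, the assembly of mm10) matched Ccl3, Ccl6, Ccl9, Cxcl2 and Cxcl10. The stretch before the first annotated start is shown 5′ to 3′ on the gene's strand. It is given for the abundant Ccl6 and Ccl9 and for the scarcer Cxcl2 and Cxcl10. Ccl3, also scarce, is not shown. Its highest-to-lowest ratio over the libraries was 5.84, against 3.60 for Cxcl10, so the choice does not rank genes by variability. Capitals mark matches on either strand to kappaB (GGG and CC with 5 bases between), AP-1 (TGANTCA), an interferon element (GAAA and GAAA with 2 bases between) or C/EBP (TTNNNCAA).
Ccl6, chr11:83593088-83593337, minus: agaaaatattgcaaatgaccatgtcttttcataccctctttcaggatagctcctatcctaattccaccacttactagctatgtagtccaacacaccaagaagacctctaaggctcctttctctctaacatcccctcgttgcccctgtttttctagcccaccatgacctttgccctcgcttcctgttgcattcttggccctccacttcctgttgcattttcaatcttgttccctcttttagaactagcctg
Ccl9, chr11:83578637-83578886, minus: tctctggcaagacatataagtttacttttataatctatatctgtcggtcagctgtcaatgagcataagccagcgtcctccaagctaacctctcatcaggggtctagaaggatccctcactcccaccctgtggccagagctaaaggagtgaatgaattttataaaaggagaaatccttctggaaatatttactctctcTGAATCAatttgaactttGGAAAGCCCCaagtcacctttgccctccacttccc
Cxcl2, chr5:90903649-90903870, plus: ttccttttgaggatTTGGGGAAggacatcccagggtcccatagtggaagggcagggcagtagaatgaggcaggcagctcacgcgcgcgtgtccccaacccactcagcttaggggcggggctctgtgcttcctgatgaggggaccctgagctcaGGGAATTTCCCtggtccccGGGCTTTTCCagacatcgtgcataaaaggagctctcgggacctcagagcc
Cxcl10, chr5:92348890-92349139, minus: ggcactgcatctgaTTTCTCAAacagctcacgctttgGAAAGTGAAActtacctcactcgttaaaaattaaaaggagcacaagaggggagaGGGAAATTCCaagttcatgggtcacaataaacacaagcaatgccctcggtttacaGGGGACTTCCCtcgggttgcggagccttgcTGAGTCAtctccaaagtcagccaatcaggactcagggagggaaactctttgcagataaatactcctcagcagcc
Ccl6 held no match to any of the 4 motifs in its window. Ccl9 held 1 kappaB and 1 AP-1 match, Ccl3 1 C/EBP match, and Cxcl2 2 separate kappaB matches and 1 C/EBP match. Cxcl10 held 2 separate kappaB matches and 1 each of AP-1, the interferon element and C/EBP. Of all 32851 windows, 50.8% held a kappaB match, 7.81% AP-1, 3.44% the interferon element and 36.7% C/EBP, so the first and the last are common. A match describes the letters alone.

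None of the 9 genes passed the test for a change with stress. In the edgeR test 0 of 9 had an adjusted p under 0.05, against 0.0075% of the 13334 genes tested, and 0 of 9 had an unadjusted p under 0.05, against 5.53%. DESeq2 and limma-voom also called 0 of 9. No member separated the groups in every library, which 1.11% of the genes tested did. Their log2 fold changes (stressed over non-stressed) had a median of 0.15, with 6 of 9 above 0, against a median of 0.004 and 50.9% above 0 over all genes tested. A missed threshold does not show equal levels, and the intervals below give the sizes that these libraries still allow.

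**Figure D2:**
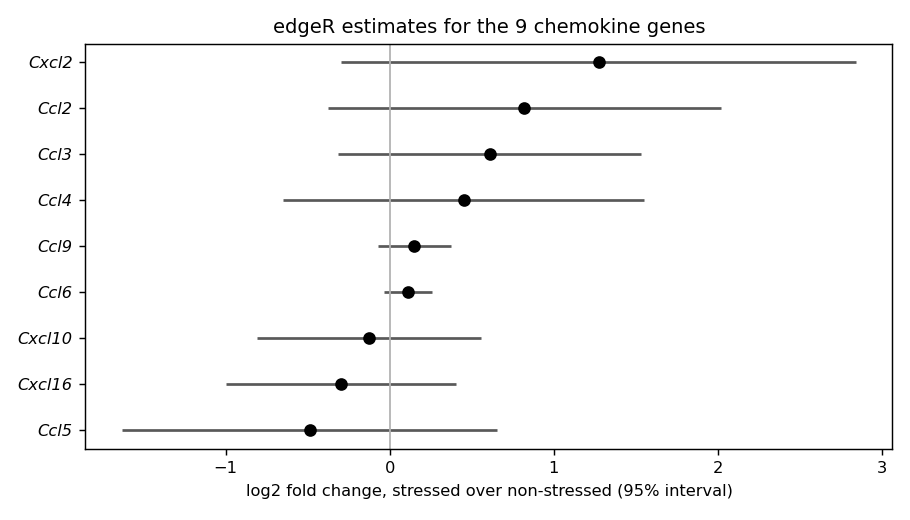
Log2 fold change of each chemokine gene, stressed over non-stressed, as points with 95% intervals from edgeR (5 libraries per group). Every interval includes 0, and those of Ccl6 (-0.03 to 0.26) and Ccl9 (-0.07 to 0.37) are the narrowest of the 9.

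Ccl6 and Ccl9 are mouse C-C chemokines of myeloid cells that signal through CCR1. Ccl6 had 924, 843, 968, 913 and 965 CPM in stressed replicates 1 to 5, against 840.0, 765, 896, 939 and 837 CPM in non-stressed replicates 1 to 5. The means were 922 ± 50.6 and 855 ± 65.9 CPM (stressed and non-stressed, SD, n = 5 each). Stressed replicates 3 and 5 lay above every non-stressed library, and the groups otherwise overlapped. The log2 fold change was 0.11 (SE 0.07, 95% interval -0.03 to 0.26, edgeR adjusted p = 0.940), so the interval ends at 1.197-fold. It was 0.07 without non-stressed replicate 2. Ccl9 had 670.3, 723, 633, 699 and 773 CPM in stressed libraries, against 509, 558, 613, 759.7 and 722 CPM in non-stressed ones. Its lowest 3 values were all non-stressed, and its highest, in stressed replicate 5, was close to that of non-stressed replicate 4. The log2 fold change was 0.15 (SE 0.10, interval -0.07 to 0.37, edgeR adjusted p = 0.950), up to 1.29-fold. Single libraries moved it to 0.07 (without non-stressed replicate 1) and 0.23 (without non-stressed replicate 4). These 2 genes varied least of the 9 between libraries, with highest-to-lowest ratios of 1.26 and 1.52.

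Ccl2, the ligand of CCR2 and a recruiter of inflammatory monocytes, had 4.02, 4.53, 25.9, 8.32 and 11.7 CPM in stressed libraries, against 1.85, 4.58, 2.55, 13.1 and 8.87 CPM in non-stressed ones. Stressed replicate 3 stood highest, at 1.98 times the next library, and the groups overlapped elsewhere. The log2 fold change was 0.82 (SE 0.56, interval -0.38 to 2.02, edgeR adjusted p = 0.950). Single libraries moved it to 0.22 (without stressed replicate 3, edgeR adjusted p = 0.999) and 1.29 (without non-stressed replicate 4, edgeR adjusted p = 0.865). Stressed replicate 3 also held 445 CPM of Egr1, an immediate early transcription factor, against at most 12.05 CPM in the other stressed and 11.9 CPM in the non-stressed libraries; its part in the Ccl2 value was not tested.

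Ccl3 and Ccl4, the macrophage inflammatory proteins, attract monocytes and T cells and are neighbours on chromosome 11. Ccl3 had 8.12, 3.68, 18.4, 21.5 and 12.9 CPM in stressed libraries, against 6.52, 5.91, 5.81, 18.2 and 6.05 CPM in non-stressed ones. Among the non-stressed, 4 libraries lay within 5.81 to 6.52 CPM and replicate 4 stood alone, while the stressed ones spread on both sides. For Ccl3, the log2 fold change was 0.61 (SE 0.43, interval -0.31 to 1.53, edgeR adjusted p = 0.950). Leaving out that non-stressed library gave 1.10 (edgeR adjusted p = 0.864), leaving out stressed replicate 4 gave 0.34 (edgeR adjusted p = 0.992), and the T and NK marker level as a covariate gave 0.20. Ccl4 had 4.80, 1.91, 1.89, 4.38 and 3.55 CPM in stressed libraries, against 1.6001, 1.70, 5.64, 2.28 and 0.870 CPM in non-stressed ones. Non-stressed replicate 3 held the highest value and non-stressed replicate 5, with 25 reads, the lowest. For Ccl4, the log2 fold change was 0.45 (SE 0.52, interval -0.65 to 1.55, edgeR adjusted p = 0.963). It was 1.03 without non-stressed replicate 3, 0.23 without non-stressed replicate 5 and 0.28 without stressed replicate 1. In stressed replicate 3, Ccl4 was the lowest value of its group and Ccl3 the second highest.

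Cxcl2, a CXCR2 ligand that attracts neutrophils, was the most variable member. It had 5.12, 0.533, 3.22, 1.52 and 11.1 CPM in stressed libraries, against 1.56, 0.340, 1.11, 4.28 and 1.67 CPM in non-stressed ones. Stressed replicate 5, with 290 reads, held 2.16 times the level of the next library, and no other library stood out this far for any of the 9 genes. For Cxcl2, the log2 fold change was 1.27 (SE 0.73, interval -0.30 to 2.84, edgeR adjusted p = 0.940), and 0.53 without stressed replicate 5 (adjusted p = 0.998).

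Cxcl10, an interferon-inducible ligand of CXCR3 on T and NK cells, had 11.2, 10.8, 6.77, 12.1 and 19.98 CPM in stressed libraries, against 7.02, 12.1, 10.9, 24.4 and 12.3 CPM in non-stressed ones. The highest library in each group stood well above its others, and the rest lay within 6.77 to 12.3 CPM. For Cxcl10, the log2 fold change was -0.13 (SE 0.32, interval -0.81 to 0.55, edgeR adjusted p = 0.990). Its sign turned when single libraries were left out, to 0.02 for stressed replicate 3 (edgeR adjusted p = 0.999) and 0.21 for non-stressed replicate 4 (edgeR adjusted p = 0.955). Without stressed replicate 5 it was -0.39, without non-stressed replicate 1 it was -0.29, and without non-stressed replicate 3 it was -0.20.

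Cxcl16 encodes a transmembrane chemokine that binds CXCR6 and is also a scavenger receptor for oxidised lipoprotein. It had 3.23, 4.35, 4.33, 8.75 and 4.54 CPM in stressed libraries, against 3.36, 6.72, 8.76, 5.38 and 6.85 CPM in non-stressed ones. Stressed replicate 4 lay within the non-stressed range, and the other 4 stressed libraries lay below 4 of the 5 non-stressed ones. For Cxcl16, the log2 fold change was -0.30 (SE 0.33, interval -0.999 to 0.40, edgeR adjusted p = 0.961). Leaving out stressed replicate 4 gave -0.595 and stressed replicate 1 -0.18, while leaving out non-stressed replicate 3 gave -0.15 and non-stressed replicate 1 -0.46.

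Ccl5, a chemokine of T and NK cells and activated myeloid cells, had 12.6, 17.2, 6.10, 4.21 and 4.19 CPM in stressed libraries, against 10.95, 25.2, 18.1, 2.48 and 5.15 CPM in non-stressed ones. Replicates 1 and 2 of both groups and non-stressed replicate 3 were high, and the other 5 libraries were low. For Ccl5, the log2 fold change was -0.49 (SE 0.54, interval -1.63 to 0.66, edgeR adjusted p = 0.961). Without stressed replicate 2 it was -0.88, and without non-stressed replicate 2 it was -0.06; leaving out stressed replicate 4 or 5 or non-stressed replicate 3 gave -0.31 to -0.32, and non-stressed replicate 4 -0.75. The T and NK marker level as a covariate, chosen after the values were seen, gave 0.08. In bulk RNA, fewer cells of a type and less RNA per cell cannot be told apart.

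**Figure D3:**
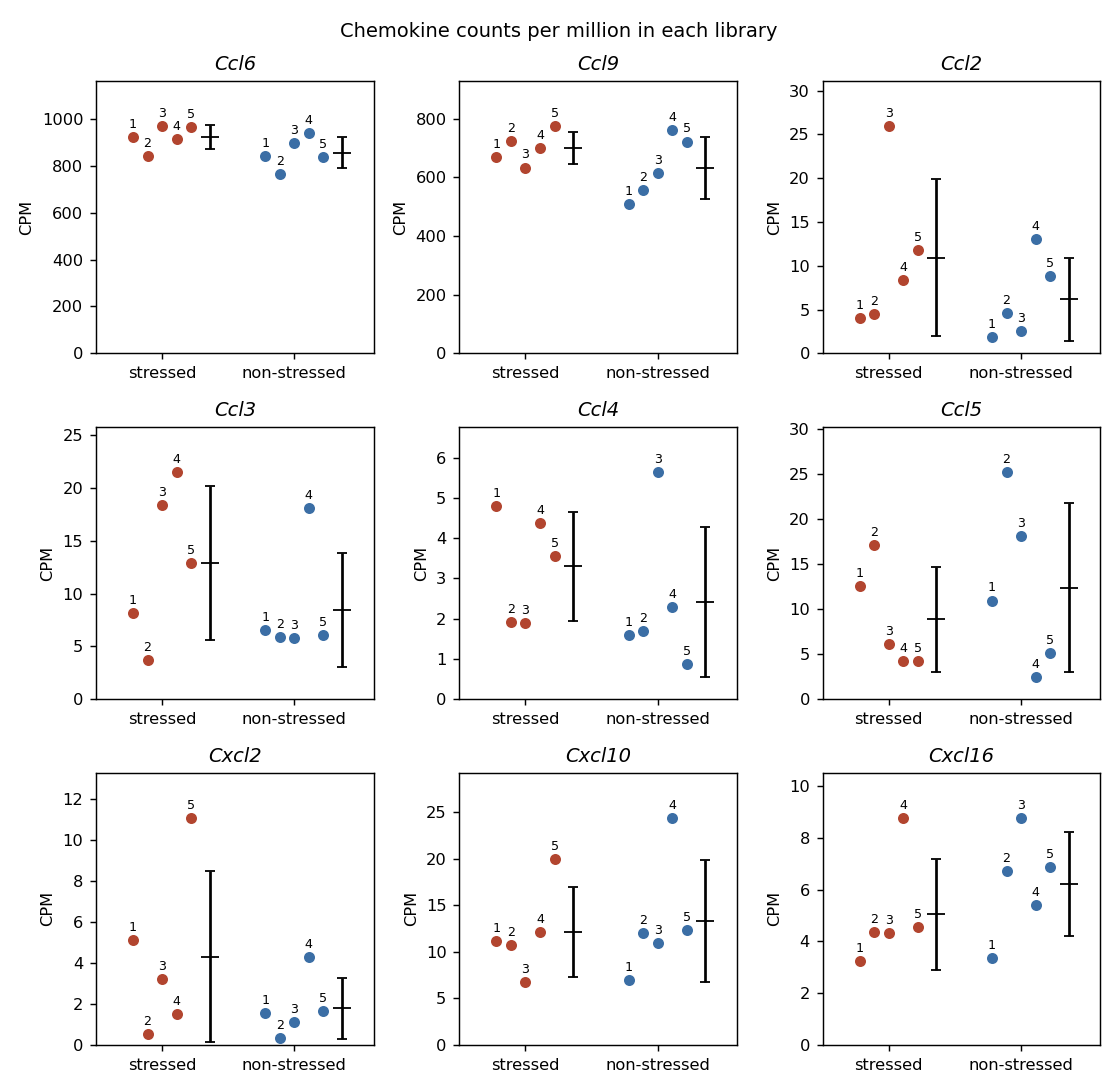
CPM of each chemokine gene in every library, stressed on the left and non-stressed on the right of each panel, with replicate numbers above the points and the mean ± SD (n = 5) as a black bar. The groups overlap for all 9 genes, and single libraries stand high for Cxcl2 (stressed replicate 5, 11.1 CPM) and Ccl2 (stressed replicate 3, 25.9 CPM).

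Set against the T and NK cell markers, Ccl5 and Ccl2 divided the libraries the same way and in opposite directions. Ccl5 stood at 10.95 to 25.2 CPM in the 5 libraries with marker sums of 71.8 CPM or more, and at 2.48 to 6.10 CPM in the other 5. Ccl2 stood at 1.85 to 4.58 CPM in the first 5 and at 8.32 to 25.9 CPM in the others. The ranges of the other 7 members overlapped between these sets. The sets were drawn after the values of 11 marker lists had been seen, so the split itself is given with no test or correlation. The endothelial, neutrophil and monocyte and macrophage marker sums divided the same libraries, while their mean log2 levels overlapped, as given above. The part of any of these cells in the Ccl5 and Ccl2 levels was not tested. Within the first set (2 stressed, 3 non-stressed) the difference of mean log2 CPM, stressed minus non-stressed, was 0.60 for Ccl2, -0.22 for Ccl5, 0.94 for Cxcl2, -0.15 for Ccl3 and 0.18 for Cxcl10. Within the second (3 stressed, 2 non-stressed) it was 0.34 for Ccl2, 0.41 for Ccl5, 0.50 for Cxcl2, 0.71 for Ccl3 and -0.55 for Cxcl10. Ccl5, Ccl3 and Cxcl10 thus had opposite signs in the sets, as did Ccl9 (0.32 and -0.08).

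**Figure D4:**
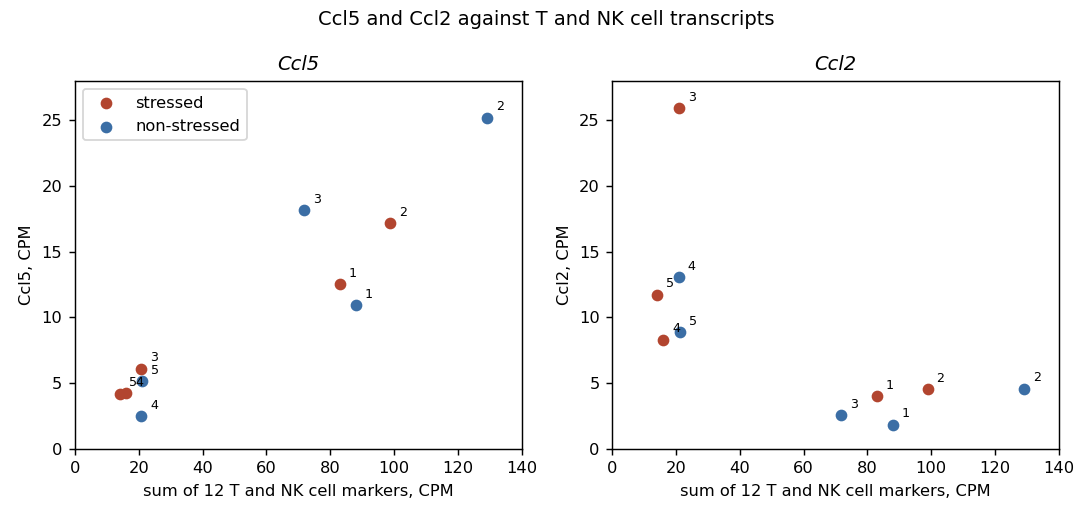
Ccl5 (left) and Ccl2 (right) in CPM against the summed CPM of 12 T and NK cell markers, with 1 point per library, numbered by replicate. The 5 libraries with sums of 71.8 CPM or more hold the 5 highest Ccl5 values and the 5 lowest Ccl2 values.

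The same differences were taken within the libraries with Xist (2 per group) and those with Y-linked transcripts (3 per group). They were 0.76 and 0.88 for Ccl2, 0.71 and 0.41 for Ccl3, 0.18 and 0.07 for Ccl6, 0.26 and 0.10 for Ccl9, and -0.31 and -0.31 for Cxcl16. For Cxcl2 they were 2.19 and 0.19, for Ccl4 1.75 and -0.16, for Cxcl10 0.70 and -0.62, and for Ccl5 -0.03 and -0.46. An interaction term in edgeR called none of the 9 (0 of 13334 genes in all); Cxcl10 had the smallest unadjusted p, 0.0384, and did not pass the adjusted threshold.

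None of the 36 pairs of members correlated past the threshold over the 10 libraries (8 at an unadjusted p under 0.05). Ccl6 and Cxcl2 had r = 0.80 (permutation p = 0.00553, adjusted p = 0.141) and rho = 0.72 (permutation p = 0.0228, adjusted p = 0.227), and r = 0.78 without non-stressed replicates 2 and 5. Ccl9 and Cxcl10 had r = 0.70 (permutation p = 0.0231, adjusted p = 0.141) and rho = 0.66 (permutation p = 0.0442, adjusted p = 0.227), and r = 0.79 without non-stressed replicates 1 and 2. Ccl3 and Ccl6 had r = 0.72 (permutation p = 0.0192, adjusted p = 0.141), and r = 0.70 without stressed replicates 3 and 4. Their rho was 0.68 (permutation p = 0.0344, adjusted p = 0.227). The remaining pairs of the 8 hold Ccl2 or Ccl5. Their coefficients are not given, because the libraries form separate sets for these genes. The members of the pairs above overlapped between the sets, but their medians differed too. In libraries high and low in T and NK markers, these were 843 and 939 CPM for Ccl6 and 1.11 and 3.22 CPM for Cxcl2. For Ccl9 they were 613 and 722 CPM, for Cxcl10 10.9 and 12.3 CPM, and for Ccl3 5.91 and 18.2 CPM. The part of the sets in these coefficients was not tested.

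For the other 7 members, the closest genes among 11400 others were ranked by r of log2(CPM + 1) over the 10 libraries, as a description. A top value picked from 11400 over 10 libraries is high even for unrelated genes, so these ranks do not show shared regulation. Some of the genes had few reads, such as Mast1 (0.471 to 2.50 CPM) and Nrg2 (0 to 4.75 CPM). For Ccl9 they were Emb, Zfp276 and Vps51 (r 0.97, 0.95 and 0.95), and for Ccl6 Mast1, Ninj1 and Mrps23 (0.92, 0.88 and 0.88). For Ccl3 they were Rpl26, Rmnd1 and Lamtor4 (0.95, 0.94 and 0.92), and for Ccl4 Sfmbt2, Aco1 and Alg5 (0.88, 0.85 and 0.84). For Cxcl10 they were Accs, Samhd1 and Nrg2 (0.94, 0.91 and 0.91), for Cxcl2 Ppid and Ndufs4 (0.93 and 0.88), and for Cxcl16 Med30, Gid8 and Nudt7 (0.92, 0.91 and 0.90).

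Of the 29 other chemokine ligand genes, 12 had no read in any library, among them Ccl7, Ccl8 and Cxcl3, and 13 had at most 200 reads in all. The filter passed 5, of which 4 had a log2 fold change above 0, against 50.9% of all genes tested, and none was called (median 0.33). The platelet chemokines Ppbp (0.31, SE 0.32) and Pf4 (0.53, SE 0.33) were the most abundant of these, at 17.8 to 76.4 CPM and 7.47 to 34.9 CPM. Ccl25, a thymic and gut chemokine, had 0.33 (SE 0.36) and Ccl24, an eotaxin, 0.80 (SE 1.18). Ccl24 turned to -0.22 without stressed replicate 1, which held 2.45 CPM of it. That library alone held Cxcl13 (1.52 CPM) and Timd4, a resident macrophage marker (3.00 CPM), and it held 16.2 CPM of C1qa, another such marker, against 0 to 3.27 CPM elsewhere. By their sum, the 9 resident macrophage markers did not single out this library (85.6 CPM against 108 CPM in non-stressed replicate 2). As a mean of log2(CPM + 1), the list was highest in this library, at 2.66 against 2.34 in non-stressed replicate 2. Cxcl13, Timd4 and C1qa were chosen after their values were seen, and the part of macrophages in Ccl24 was not tested.

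Of 13 genes for receptors and processing of these chemokines, 12 were tested and none was called. Of their log2 fold changes, 3 lay above 0 and 9 below (median -0.11), where 50.9% of all genes tested lay above 0. At an unadjusted p under 0.05, 2 of the 12 were lower and 0 higher, against 5.53% of all genes in either direction. Dpp4, a peptidase that trims chemokine N termini, had 72.1, 77.0, 63.9, 86.5 and 87.2 CPM in stressed libraries, against 124, 123, 113, 99.5 and 118 CPM in non-stressed ones. All 5 stressed libraries lay below all non-stressed ones. Of the 12 genes only this 1 separated the groups, against 1.11% of all genes tested, in either direction. The log2 fold change of Dpp4 was -0.57 (SE 0.10, edgeR adjusted p = 0.156). Its adjusted p was 0.000370 in DESeq2 and 0.0106 in edgeR without a low-count filter. Over its alternatives the adjusted p ran from 0.000370 to 0.501. Adam17, a sheddase, had -0.23 (SE 0.08), Ccr1 0.22 (SE 0.24) and Cxcr3 -0.37 (SE 0.38), with edgeR adjusted p of at least 0.829.

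Among 20 inflammatory primary response genes, which share inducers with several chemokines, 15 were tested and none was called, with 13 log2 fold changes above 0 and a median of 0.23 (over all genes tested, 50.9% lay above 0). At an unadjusted p under 0.05, 5 were higher and 1 lower, against 5.53% of all genes in either direction. The lower one was Tnf, an inflammatory cytokine, at -0.61 (SE 0.24, edgeR adjusted p = 0.874), named after its value was seen. Fos had 0.76 (SE 0.28), Ier3 1.05 (SE 0.37), Cd14 0.71 (SE 0.25) and Egr1 3.37 (SE 1.08), with edgeR adjusted p of at least 0.829. Without stressed replicate 3, Fos stood at 0.48, Ier3 at 0.61 and Egr1 at 0.03. Of 12 interferon-inducible genes, all tested, none was called and 1 lay above 0, against 50.9% of all genes tested, with a median of -0.32, where Cxcl10 stood at -0.13. At an unadjusted p under 0.05, 4 of the 12 were lower, against 5.53% of all genes in either direction. Oas3 had -0.41 (SE 0.10), Ifit2 -0.56 (SE 0.21) and Ifit3 -0.53 (SE 0.24), with edgeR adjusted p of at least 0.684.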

How the data were processed

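The authors deposited a table of raw read counts per gene, not normalized, with 48526 Ensembl gene identifiers, of which 48058 have a symbol. The submitters' processing notes name mm10 and the tools STAR, featureCounts and Trimmomatic, with no role; versions, annotation and strand setting were not found in the labels. Total counts ran from 18020220 to 38237346 per library.

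Stressed and non-stressed libraries were compared on these counts by edgeR 4.0.16 under R 4.3.3 (filterByExpr, TMM, design of intercept and group, quasi-likelihood F test, Benjamini-Hochberg over the 13334 genes that passed the filter, threshold 0.05), checked on simulated counts. Each standard error is the log2 fold change over the root of its F statistic. Levels in CPM are counts per 1000000 counts of the library's plain total. Levels per kilobase divide CPM by the longest protein-coding transcript of GENCODE M21 (mm10). Members were compared in pairs on log2(CPM + 1) with 100000 permutations (two-sided, numpy 2.4.6).

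The members and gene lists were chosen with earlier results of these data known. All 9 members are named, with up to 4 genes of each other list that had the smallest p and the 3 genes most correlated with each member other than Ccl2 and Ccl5; 2 genes that this rule names are not reported here. The split by T and NK cell markers, and that marker level as a covariate, were chosen after the values were seen. Alternatives were other scalings (RLE, upper quartile), DESeq2 1.42.0, limma-voom (limma 3.58.1), other filters and thresholds, a robust dispersion, a replicate block, a covariate for Y-linked transcripts, and leaving out each library.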

Additional observations from a re-analysis of the deposited data

Results flagged for a closer look

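Within a group of 5 libraries, a value was picked out where its gap to the nearest other exceeded 0.71 of the group's range. Chance gives this in about 1 of 20 groups of normally distributed values, and the rate for CPM was not tested. Of 50 groups tested, 5 held such a value. Ccl3 stood at 18.2 CPM in non-stressed replicate 4, against 6.52 CPM in the next library. Cxcl16 stood at 8.75 CPM in stressed replicate 4, against 4.54 CPM in the next. Ccl25 was at 7.62 CPM in stressed replicate 1. Egr1 was at 445 CPM and Fos at 1812 CPM in stressed replicate 3.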

How the results depend on the processing

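Over 21 alternatives for each of the 9 chemokine genes, 186 of 189 values kept their sign and none passed the threshold. The 3 that turned were Ccl5 with the T and NK marker level as a covariate (0.0828) and Cxcl10 without stressed replicate 3 (0.02) or non-stressed replicate 4 (0.21); leaving out single libraries, Cxcl10 ran from -0.39 to 0.21. Values that kept their sign but moved over 1.5 times were Ccl2 (0.45) and Cxcl10 (-0.22) with that covariate, Ccl4 (0.29) and Ccl5 (-0.83) with limma-voom, and Ccl5 (-0.30) with the replicate block, besides Ccl3 and the single libraries given above. Ccl24 turned with limma-voom (-0.0500) and ran from -0.22 to 1.14 without single libraries. Genes called in all were 1, against 18 with DESeq2, 2 with limma-voom, 10 without a low-count filter, 5 with the T and NK covariate and 1 to 2 without single libraries. With the replicate number as a block 4 genes were called, none a member; same-numbered libraries deviated together (r over 0.1) for 4 of 5 numbers and not for replicate 3 (r = -0.03), and 4 of 5 stressed libraries correlated best with their own number, and Xist was found in the same numbers in both groups. The labels name no shared animal or batch and 1 number missed the limit, so the numbers were not taken as pairs. In both groups, however, replicates 1 and 2 were high and 4 and 5 low in T and NK markers. The p-values and intervals without the block ignore any structure by replicate number. With the block the edgeR adjusted p was 0.121 for Oas3 and 0.121 for Dpp4. Correlated pairs of members numbered 0 to 1 without single libraries; the 1 was Ccl2 and Cxcl10 without stressed replicate 3. Depth limits the members with few reads, such as Cxcl2 with 12 reads in stressed replicate 2. The cause of these shifts was not tested.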
